A study of Drosophila melanogaster with 4 samples.

Results

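Mediator is the large protein complex that carries signals from DNA-bound activators to RNA polymerase II. The TBP-associated factors (TAFs) join the TATA-binding protein (TBP) in TFIID, the complex that recognises core promoters and starts assembly of the transcription machinery. Both are general cofactors used in nearly every cell. The gene set described here holds all protein-coding genes with a symbol starting with MED or Taf and a digit, to which skd, kto, CycC and Cdk8, the kinase module of Mediator, were added. In the Ensembl annotation of the fly genome these were 44 of the 13968 protein-coding genes on the chromosome arms, 29 of them Mediator genes and 15 TAF genes.

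The question put to these genes was where Distal-less (Dll) ChIP-seq peaks lie at their promoters. Dll is a homeodomain transcription factor known for specifying legs, antennae and other ventral appendages. The samples were whole Drosophila melanogaster embryos aged 0 to 24 h from a Dll-GFP strain, which expresses Dll as a fusion with enhanced GFP, and the precipitation used an anti-GFP antibody, while a further field of the labels names Dll as the antibody. Chromatin was sonicated to a size range of 200 to 800. There were 4 biological replicates by their labels, all of the same strain and all in 1 group. No untreated, mock or other-genotype group was part of the design, so values are set against the spread over replicates and against all protein-coding genes, and no p-value was computed. Which promoter drives the fusion is not stated in the labels. Whole embryos of this age range mix all tissues and stages, and peak lists hold no expression values, so the labelled material was not checked against tissue markers.

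A gene was counted as having a peak when a summit, the highest point of a peak, lay within 500 bp of one of its transcription start sites (TSSs). The deposited files held 5203 nuclear peaks in the list that the submitters call conservative, which was made from all 4 replicates. The thresholded list of each single replicate, called its own list here, held 3609, 3610, 2523 and 2884 nuclear peaks in replicates 1 to 4. The longer ranked lists of candidate peaks held from 39011 to 44390. Each peak carries a score, the scaled irreproducible discovery rate (IDR), which runs up to 1000, and every thresholded list stopped at 830, an IDR of 0.01. Signal, a value that the authors deposited for each peak, served for ranking inside each list alone, and ranks are given as a percent from the top. Sequencing depth is unknown, because peak lists carry no read counts.

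The rule took genes whose names match known subunits, with a single exception of another kind. Taf12L, also called rye, is a testis-type relative of Taf12, and it had no peak in any thresholded list and no candidate peak in any ranked list. Medea, a Smad with the symbol Med, has no digit in its symbol and was not taken.

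Sequences at the strongest and some of the weakest promoters are printed first, because the values below refer to them. They were read from the RefSeq Release 6 genome, which is dm6, and are written 5′ to 3′ on the strand of the member gene. The first set shows the highest ranked members, MED7 (chr3R:10761074-10761174, − strand) and MED27 (chr3R:5654936-5655036, + strand), which had no TATCGATA near the summit, and members that had it, MED28 (chr3R:25476916-25477002, + strand) and MED17 (chr3R:18188963-18189063, + strand). Each reaches up to 50 bases to either side of the conservative summit, and that of MED28 ends at the base before its TSS. Capitals mark the words TAATTG in MED7, TATAAA and CGATAT in MED27, TATCGATA and CGATAT in MED28, and TATAAA and TATCGATA in MED17, on either strand, with overlapping words run together.
MED7: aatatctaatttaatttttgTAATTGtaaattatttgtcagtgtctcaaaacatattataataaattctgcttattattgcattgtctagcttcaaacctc
MED27: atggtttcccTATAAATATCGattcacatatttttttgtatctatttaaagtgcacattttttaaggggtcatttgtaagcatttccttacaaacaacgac
MED28: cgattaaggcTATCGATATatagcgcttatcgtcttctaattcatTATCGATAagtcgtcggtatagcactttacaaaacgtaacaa
MED17: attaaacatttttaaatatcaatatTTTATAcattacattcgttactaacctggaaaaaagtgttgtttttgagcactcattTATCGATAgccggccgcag

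A second set shows 6 members with no conservative peak, chosen after their values were seen, in windows of 30 bases around GGTCACAC, the word bound by the promoter factor M1BP. Capitals mark that word or, in MED10, its reverse complement. They lie at chr3L:16232006-16232035 on the + strand for MED10, chr3L:18745836-18745865 on the + strand for MED11, chr2L:473008-473037 on the + strand for MED15, chr3L:17846475-17846504 on the − strand for MED19, chrX:928121-928150 on the + strand for MED22 and chr3L:8191276-8191305 on the + strand for MED24.
MED10: gcgattgaacaGTGTGACCttgctattcct
MED11: tctcgtgttctGGTCACACtgttatctggt
MED15: ttgcctgaaacGGTCACACtgtgctcagag
MED19: tgtcgcaatgcGGTCACACtggttcgcgga
MED22: ggaaaatacgtGGTCACACtgtacatataa
MED24: aaagatacctcGGTCACACtgagcgctgct

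Dll-GFP peaks lay at the promoters of most of these genes. In the conservative list 27 of 44 members (61.4%) had a summit within 500 bp of a TSS, against 32.7% of all protein-coding genes. The 27 genes were reached by 26 peaks, because Taf10 and Taf10b share a promoter and a peak. In the own lists of replicates 1 to 4, 22, 22, 18 and 22 members had a peak, against 26.2%, 27.1%, 20.5% and 22.6% of all genes. This was 47.7% ± 4.55 of the members per list, against 24.1% ± 3.05 of all genes (SD, n = 4). The count was lowest in replicate 3, which also had the shortest list. In all 4 own lists together 15 members (34.1%) had a peak, against 17.6% of all genes, and in at least 1 own list 27 did, against 31.6%.

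The count of 15 depends on how a summit between genes is assigned, and it was 8 among the upper 50% of each list by signal, against 11.9% of all genes. When each summit was given only to the gene with the nearest TSS, 7 members (MED7, Taf4, Taf6, Taf7, Taf9, Taf10b and kto, 15.9%) had a peak in all 4 own lists, against 10.9% of all genes. The 8 members no longer counted (MED9, MED27, MED28, MED30, Taf10, Taf11, Taf13 and skd) each have a neighbour within 500 bp of the same conservative summit. Under this assignment 23 members had a conservative peak, against 25.3% of all genes.

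**Figure D1:**
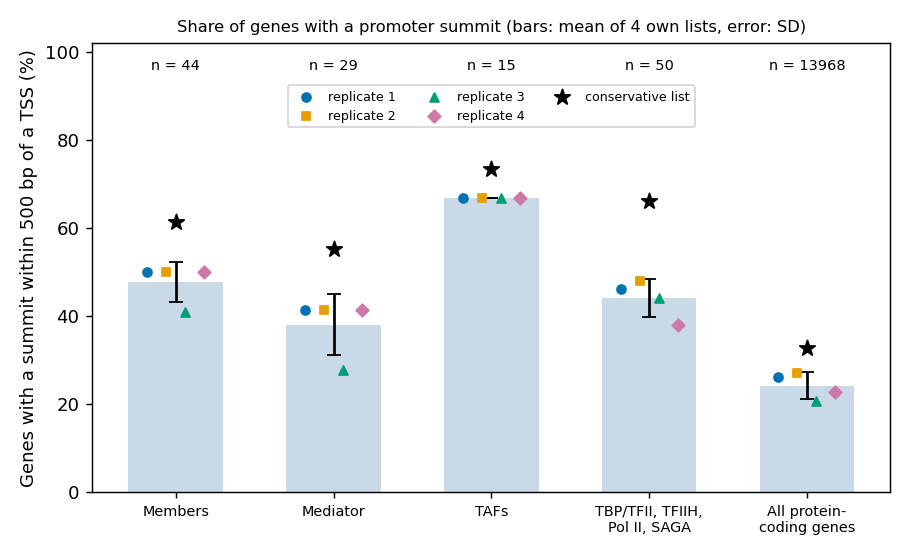
Percent of genes with a summit within 500 bp of a TSS (vertical axis, 0 to 100%) for all 44 members, the 29 Mediator genes, the 15 TAF genes, 50 genes of other transcription machinery and all 13968 protein-coding genes. Bars and error bars give the mean and SD over the 4 own lists, small symbols each replicate and stars the conservative list. The TAF genes stand at 66.7% in each of the 4 own lists, and the star of all members lies at 61.4% against 32.7% for all genes.

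Among the Mediator genes 16 of 29 (55.2%) had a conservative peak, and 11 ± 2 (37.9% ± 6.90, SD, n = 4) had a peak in an own list. Among the TAF genes it was 11 of 15 (73.3%), and exactly 10 of 15 in each own list, although not the same 10. The classes are small, so their counts are given as a description, and each can be set beside the 32.7% of all genes with a conservative peak and the 17.6% with one in all 4 own lists. In the head of Mediator, the part that contacts RNA polymerase II, 5 of 10 genes (50%) had a conservative peak and 2 (20%) had one in all 4 own lists. In the middle module the counts were 3 (37.5%) and 2 (25%) of 8 genes. In the tail, the module that many activators bind, with the backbone subunit MED14 counted here, they were 4 (57.1%) and 1 (14.3%) of 7. The middle module in the conservative list, and the head and tail in the own lists, were thus near the shares of all genes. All 4 genes of the kinase module had a conservative peak and 2 had one in all 4 own lists. Of the 10 TAFs that carry a histone fold, 9 had a conservative peak and 7 had one in all 4 own lists, with 8.5 ± 0.577 per own list (SD, n = 4). Of the 4 other TAFs of TFIID (Taf1, Taf2, Taf5 and Taf7) it was 2 and 1.

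**Figure D2:**
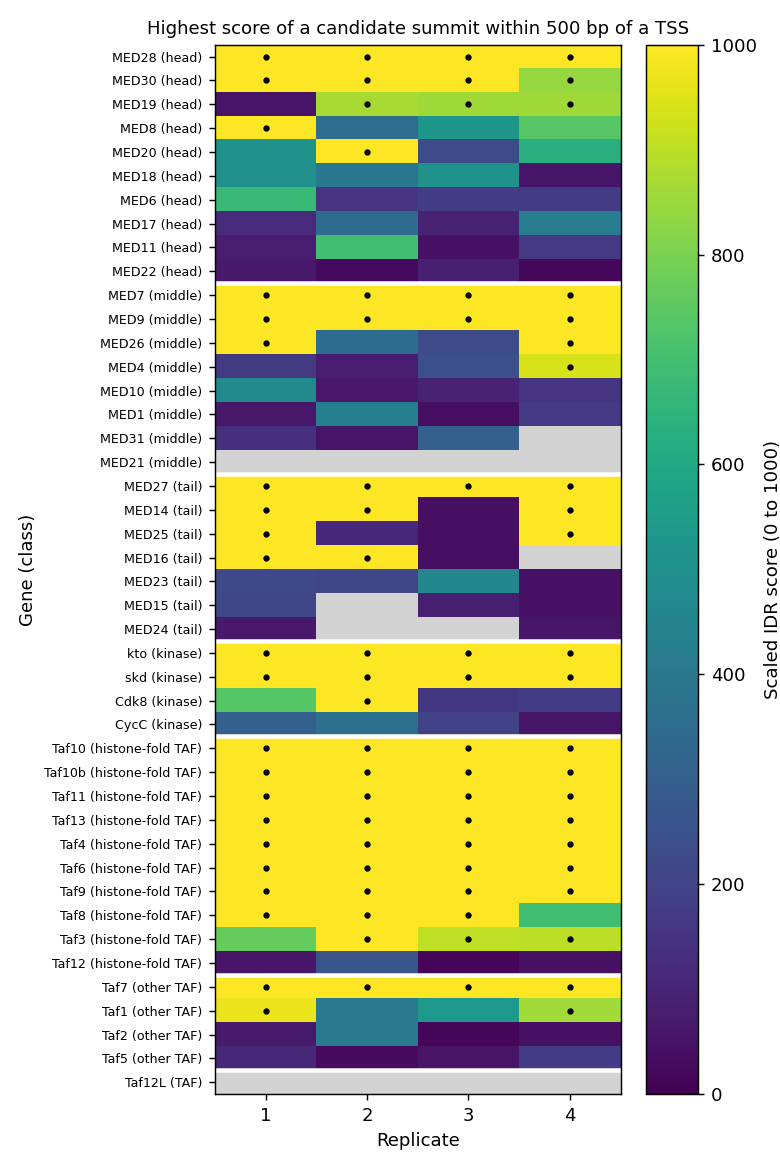
Highest score (colour, scaled IDR from 0 to 1000) of a candidate peak with its summit within 500 bp of a TSS, for each of the 44 members (rows, by class) in each replicate (columns). Dots mark a peak in that replicate's own thresholded list, and grey marks no candidate. The 7 histone-fold TAFs from Taf10 to Taf9 are at 1000 in all 4 columns, while MED21 and Taf12L are grey throughout.

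In the middle module, MED7 stood highest of all members. MED7 lies at the hinge of the middle module together with MED21. Its promoter peak ranked at 0.333% from the top in replicate 1, 0.803% in replicate 2, 0.357% in replicate 3 and 0.381% in replicate 4, a mean of 0.468% ± 0.224 (SD, n = 4). Replicate 2 was the lowest placed, and in all 4 replicates the peak was within the top 1% of its list. The conservative summit, in the sequence printed for MED7, lay 92 bp upstream of the TSS, and in the conservative list this peak was number 14 by signal. It was shared with Cap-H2, a condensin subunit gene on the opposite strand, with the TSS of MED7 the nearer.

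MED9, a small middle subunit, ranked at 35.2%, 29.2%, 66.2% and 45.5% in replicates 1 to 4 (mean 44.0% ± 16.2, SD, n = 4). Its peak was weakest in replicate 3 and lay among the start sites of Nup75, a nuclear pore gene, and CG42518. MED26, whose human protein recruits elongation factors, had a peak in replicate 1 at 80.5% and in replicate 4 at 66.5%, and candidates with scores of 355 and 234 in replicates 2 and 3. MED4 had a peak in replicate 4 only, at 79.9% and with a score of 940, and its nearest conservative summit was 1034 bp away.

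In the tail, MED27 had the strongest peak, at 2.63%, 4.49%, 3.92% and 4.2% in replicates 1 to 4 (mean 3.81% ± 0.818, SD, n = 4). It was in the upper 5% of every own list. The conservative summit lay 153 bp upstream of the MED27 TSS and nearer to the TSS of elm on the other strand, so the peak cannot be assigned to MED27 rather than elm. MED14, the backbone that joins the modules, ranked at 60.7%, 54.1% and 76.4% in replicates 1, 2 and 4 and was missing from replicate 3. MED16, a further tail subunit, had peaks in replicates 1 and 2, at 76.4% and 70.9%.

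MED25, known in mammals as a target of activation domains, showed the widest gap between signal and score. It ranked at 18.8% in replicate 1 and 22.0% in replicate 4, and it was missing from the own lists of replicates 2 and 3. In those replicates the candidate peak was high by signal, at number 1007 of 39011 candidates in replicate 2 (2.58% from the top) and number 974 of 44390 in replicate 3 (2.19%). Its scores were 112 and 42, far below 830. Of the candidates with at least as much signal, only 3 of 1007 and 3 of 974, the MED25 peak included, scored under 830. The missing peaks of MED25 were therefore not low in signal. MED14 and MED16 in replicate 3 also had high candidates with low scores, at 6.42% and 6.24% from the top with scores of 40 and 39. There, however, 21.1% and 19.4% of the candidates at least as high scored under 830 too.

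In the head, MED28 ranked at 21.0%, 12.4%, 25.1% and 28.8% in replicates 1 to 4 (mean 21.8% ± 7.07, SD, n = 4), highest in replicate 2. Its summit lay 40 bp upstream of the TSS, inside the sequence printed for MED28, with CG4553 starting on the other strand. MED30, a head subunit of animals that yeast lacks, ranked at 59.9%, 59.8%, 56.3% and 81.7% (mean 64.4% ± 11.7, SD, n = 4). Its peak in replicate 4 stood apart from the other three as the weakest, and its score of 843 was just above the threshold. MED20, which forms the movable jaw of the head with MED18, had a peak in replicate 2 only, at 67.8%, and its conservative summit was nearer to the TSS of Trf, a relative of TBP.

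The kinase module, which joins Mediator reversibly, was covered by conservative peaks at each of its genes, with unequal support from the replicates. The gene kto, the fly Med12, ranked at 16.8%, 11.4%, 16.2% and 29.2% in replicates 1 to 4 (mean 18.4% ± 7.58, SD, n = 4), lowest in replicate 4, and had its summit to itself, 57 bp upstream of a TSS. The gene skd, the fly Med13 and the binding partner of kto, ranked at 34.8%, 74.7%, 39.9% and 40.8% (mean 47.5% ± 18.3, SD, n = 4). Replicate 2 stood apart because its counted summit was at the other TSS of skd, 1338 bp from the conservative summit. The upstream peak near the first TSS was present in replicate 2 too, at 42.7% from the top, but its summit lay 599 bp upstream and so outside the 500 bp rule, against 458, 474 and 450 bp in replicates 1, 3 and 4. The conservative summit of skd was shared with Pdss2 and lay nearer to the TSS of Pdss2. This peak therefore cannot be assigned to skd rather than Pdss2. Cdk8, the kinase, had a peak in replicate 2 only, at 87.1%, with a score of 735 in replicate 1, under the threshold. CycC, its cyclin, had a conservative peak with a score of 949 and none in any own list, where its candidates scored 307, 370, 194 and 62. The conservative summit was shared with UQCR-C1, with the TSS of CycC the nearer.

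The histone-fold TAFs bind each other in fixed pairs inside TFIID, and the peaks can be set out by those pairs. Taf6 and Taf9 form a pair, and both had a peak in all 4 own lists. Taf9 ranked at 22.9%, 23.7%, 54.2% and 32.0% (mean 33.2% ± 14.6), weakest in replicate 3, and Taf6 at 54.5%, 43.6%, 54.8% and 39.3% (mean 48.1% ± 7.83, all SD, n = 4). The conservative summit at Taf6, 194 bp upstream, was nearer to the TSS of ash1, a histone methyltransferase gene of the trithorax group. The own summits lay closer to Taf6, and by the nearest TSS it kept its peak in all 4 own lists. Taf11 and Taf13 form another pair, and both again had a peak in every own list. Taf11 ranked at 31.3%, 27.3%, 53.9% and 37.5% (mean 37.5% ± 11.7), and Taf13 at 29.4%, 20.6%, 29.0% and 44.3% (mean 30.8% ± 9.85, all SD, n = 4). The conservative summits of both lay nearer to a neighbour's TSS than to their own, und for Taf11 and nesd for Taf13.

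Taf10 and its paralog Taf10b start back to back and shared a peak in each list. It ranked at 29.5%, 28.6%, 26.2% and 32.7% (mean 29.2% ± 2.66, SD, n = 4), so its ranks spread less over the replicates than those of Taf9 or Taf11. Taf8 and Taf3, which pair with Taf10-type proteins, each missed a single own list. Taf8 ranked at 66.4%, 52.9% and 66.0% in replicates 1 to 3, and in replicate 4 its candidate scored 692. Taf3 ranked at 61.9%, 87.7% and 76.8% in replicates 2 to 4, and in replicate 1 its candidate scored 763. Taf4, the scaffold TAF, had a peak in every own list at 41.3%, 52.1%, 60.9% and 71.0% (mean 56.3% ± 12.6, SD, n = 4). Its partner Taf12 had none in any thresholded list, and its candidates scored 60, 260, 18 and 43.

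Outside the histone-fold group, Taf7 had the highest ranked peak of all TAF genes. Taf7 binds Taf1 and is known to restrain its acetyltransferase activity. Its peak ranked at 6.76%, 8.42%, 5.51% and 6.62% in replicates 1 to 4 (mean 6.83% ± 1.20, SD, n = 4), and all 4 values were within the top 10%. The conservative summit was shared with EMC1, with a TSS of Taf7 the nearer. Taf1, the largest TAF, had peaks at 79.0% in replicate 1 and 88.1% in replicate 4, with scores of 972 and 861, and missed the threshold with 413 and 534 in the other replicates. Taf2, which contacts the initiator, and Taf5, a scaffold with WD repeats, had no thresholded peak.

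**Figure D3:**
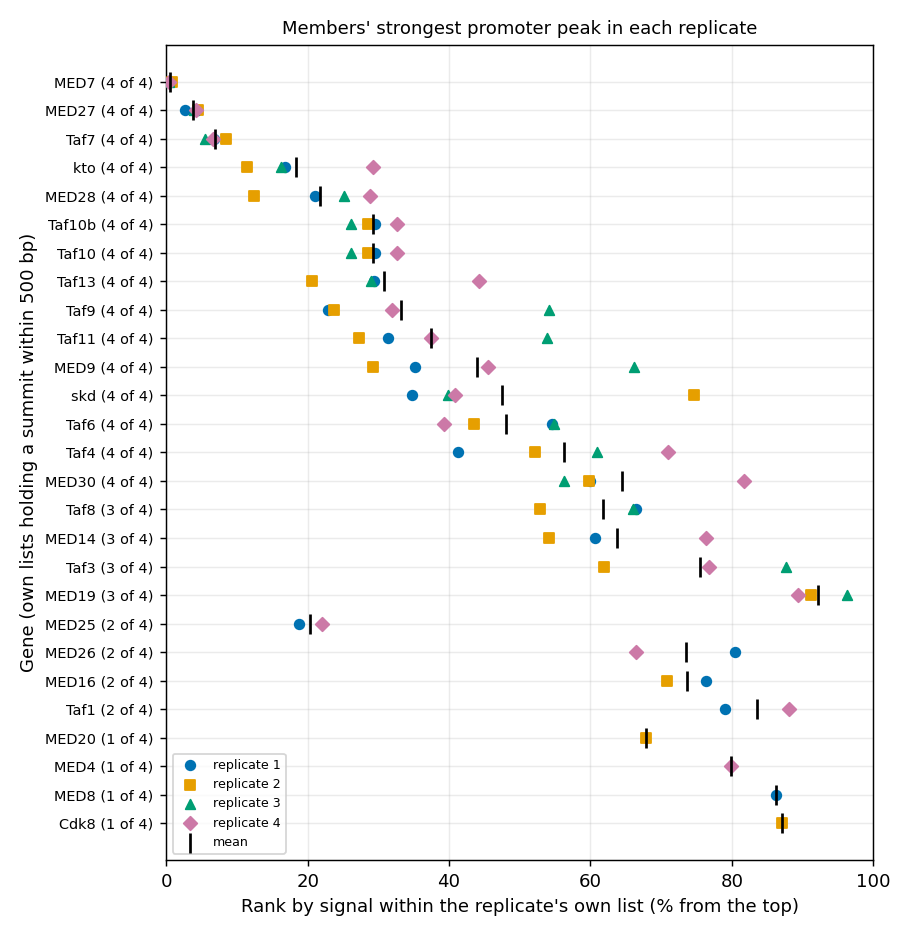
Rank by signal of each member's strongest promoter peak in each replicate's own list (horizontal axis, percent from the top, so that left is stronger) for the 27 members with a peak in at least 1 own list. Symbols give the replicates, vertical bars the mean over the replicates that have a peak, and the number after the gene how many own lists hold it. MED7, MED27 and Taf7 are within the top 10% in all 4 replicates, while MED19 lies between 89.3% and 96.3%.

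Over the 15 members with a peak in all 4 own lists the median of the mean ranks was 30.8%, against 28.1% over the 2462 genes with a peak in all 4. The members within the top 10% were 3 of 15, against 17.6% of those genes. Within the top 25% were 5 (33.3%), against 45.0%, and within the top 50% were 13 (86.7%), against 83.5%. Of these 15 members, MED7, MED27, Taf7, kto and MED28 were in the top 25%, and Taf4 and MED30 were below the middle. The members with peaks in fewer own lists ranged from MED25, at a mean of 20.4% over 2 lists, to MED19, at 92.2% over 3.

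The conservative and own lists did not always name the same members. MED17, the scaffold of the head, MED18 and CycC had a conservative peak and none in any own list. Other deposited thresholded lists made from all 4 replicates also held a summit at these genes. This was so in 3 such lists for MED17, 4 for MED18 and 1 for CycC. MED17 had candidates with scores of 120, 349, 98 and 425 in replicates 1 to 4, and MED18 of 503, 393, 508 and 58. MED19, MED4 and MED8 were in own lists and not in the conservative list. MED19 had a peak in replicates 2, 3 and 4, at 91.2%, 96.3% and 89.3%, close to the bottom of each list, and MED8 in replicate 1 only, at 86.3%. The nearest conservative summits to MED8 and MED19 were 556 and 560 bp from a TSS, just outside the 500 bp of the rule, whereas that of skd, at -456 bp, was just inside.

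The scores on either side of 830 show how close some calls were. Just inside were MED30 in replicate 4 with 843, MED19 with 857, 859 and 868, and Taf1 in replicate 4 with 861. Just outside were Taf3 in replicate 1 with 763, MED8 in replicate 4 with 741 and Cdk8 in replicate 1 with 735. The 84 pairs of member and replicate with a candidate at 830 or above were the same 84 that had a peak in an own list. Every own list stopped at 830, so this match follows from the threshold.

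Neither the conservative list nor any own list held a peak at 14 members. These were MED1, MED6, MED10, MED11, MED15, MED21, MED22, MED23, MED24, MED31, Taf2, Taf5, Taf12 and Taf12L. Some of them had a summit in other deposited thresholded lists made from all 4 replicates. These were MED6 and MED23, each in 2 such lists, and MED11 in 1. MED1 is a nuclear receptor contact and MED15 an activator target in mammals. Of the 14, 9 (64.3%) had a candidate in all 4 ranked lists, against 20.4% of all 9021 genes without a conservative or own peak. Over all genes that share was 47.4%, and 2 of the 14 (MED21 and Taf12L) had a candidate in no ranked list. The candidates of the 14 scored from 18 to 698, with a median of 88.5 over 44 values. The highest was that of MED11 in replicate 2. By signal, the highest placed of these candidates were at MED23 (14.8% ± 4.81 from the top of the ranked lists), MED6 (15.2% ± 8.27) and MED11 (17.9% ± 3.15, all SD, n = 4). The nearest conservative summit was from 2259 bp (MED23) to 579758 bp (MED21) away, with a median of 6270 bp. Among all members 42, 40, 41 and 40 had a candidate in the ranked lists of replicates 1 to 4, against 61.8%, 60.7%, 62.9% and 60.6% of all genes.

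Summits lay mostly just upstream of the members' start sites. Of the 27 conservative summits 23 (85.2%) were upstream, against 78.7% over all genes with such a peak, and the median position was -57 bp against -73 bp. The range was from -456 bp (skd) to 48 bp (Taf1), and 19 summits were within 100 bp and 26 within 200 bp of the TSS. The 4 downstream summits were those of Taf1, Taf3, MED26 and CycC, of which none had a peak in all 4 own lists. By annotation 18 summits were intergenic, 6 in a 5' UTR, 2 in an intron and 1, that of MED20, in coding sequence. The own lists placed summits near the same points: of 79 own summits, 62 were within 50 bp of the member's conservative summit, the median distance was 27 bp, and 3 were over 100 bp away.

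**Figure D4:**
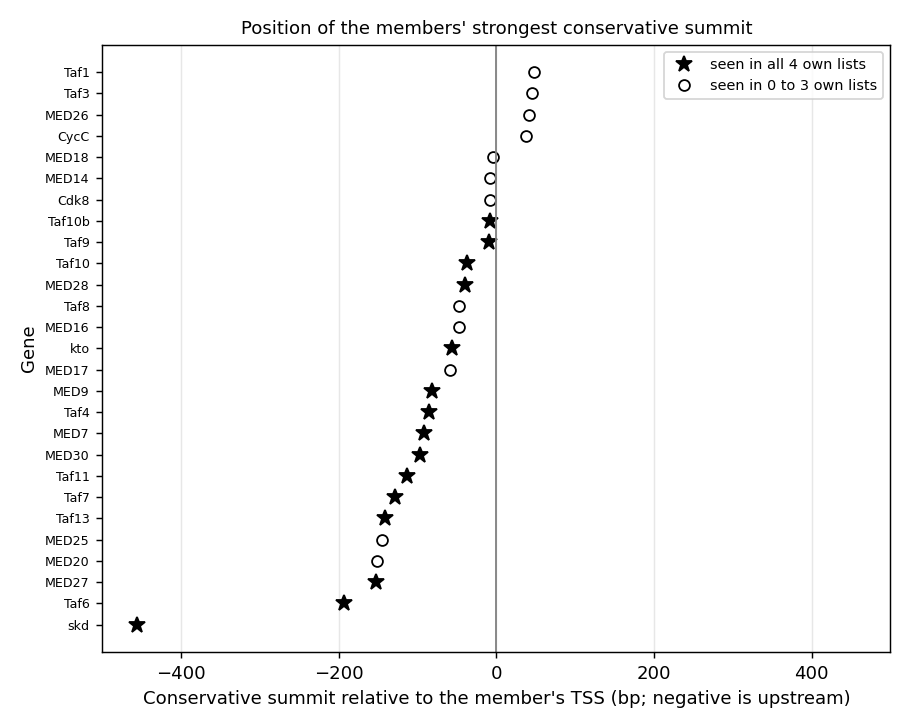
Position of the strongest conservative summit relative to the member's TSS (horizontal axis, bp, negative is upstream) for the 27 members with a conservative peak. Filled stars mark members with a peak in all 4 own lists and open circles the others. All summits but those of skd, Taf1, Taf3, MED26 and CycC lie between 200 bp upstream and the TSS.

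Many members start back to back with another gene, which bears on how their peaks can be assigned. A protein-coding gene on the other strand started within 500 bp of 28 of 44 members (63.6%), against 27.8% of all genes. Among genes with such a neighbour 18 of 28 members (64.3%) and 64.4% of all genes had a conservative peak. Among genes without one it was 9 of 16 members (56.2%) and 20.5% of all genes. For peaks in all 4 own lists the shares were 42.9% of members against 38.0% of all genes with a neighbour, and 18.8% (3 of 16) against 9.78% without. The members' share of conservative peaks was therefore close to that of all genes where a neighbour was present and above it where none was. The part of the neighbours in the members' overall share was not tested further.

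Of the 27 members with a conservative peak, 18 (66.7%) shared the summit with another protein-coding TSS within 500 bp, against 57.4% of all genes with a peak. The TSS of the member was the nearest in 10 of these and another was nearer in 8. The 9 members alone at their summit were kto, Cdk8, MED14, MED26, Taf1, Taf3, Taf4, Taf8 and Taf9. Among these, kto, Taf4 and Taf9 had a peak in all 4 own lists. For the shared summits the data do not show which of the genes, if any, the bound protein acts on. Members also had fewer start sites that could catch a summit: 84.1% had a single TSS, against 73.5% of all genes, and among single-TSS genes 59.5% of members and 28.4% of all genes had a conservative peak.

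The rest of the transcription machinery was counted by the same rule. For TBP, its relatives and TFIIA, TFIIB, TFIIE, TFIIF and TFIIS, 8 of 12 genes had a conservative peak and 2, Tbp at 35.0% ± 6.13 and TfIIFalpha at 11.2% ± 4.92 from the top, had one in all 4 own lists. For TFIIH, which opens promoter DNA and phosphorylates the polymerase, it was 8 and 6 of 10, led by the core subunit mrn at 5.37% ± 1.43. For the subunits of RNA polymerase II it was 8 and 4 of 12, led by Polr2J at 8.69% ± 2.36, whereas Polr2A, the largest subunit, had none. For the coactivator SAGA, which shares several TAFs with TFIID, it was 9 and 6 of 16, led by Spt3 at 4.47% ± 1.25 (all SD, n = 4). Over these 50 genes 33 (66.0%) had a conservative peak and 18 (36.0%) had one in all 4 own lists, with 44.0% ± 4.32 per own list (SD, n = 4), values close to the 61.4%, 34.1% and 47.7% of the members. Of 4 testis-type TAF paralogs besides Taf12L, only mia had a peak, in the conservative and all 4 own lists.

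Short words known from fly promoters were counted within 50 bp of each conservative summit, on both strands. TATCGATA, the binding word of the promoter factor DREF, was at the summits of 3 members (MED9, MED17 and MED28), 11.1% of 27 (95% Wilson interval 3.85 to 28.1%, for counting error only), against 16.3% of all 4565 genes with a peak. The interval holds the share of all genes. In the own lists of replicates 1 to 4 the word was at 1, 2, 1 and 1 members, 5.93% ± 2.16 against 19.7% ± 0.767 of all genes (SD, n = 4). The lists hold largely overlapping members, so this SD does not cover the counting error of so few genes. MED28 held it at 2 places, visible in its printed sequence. Within 25 bp of the conservative summit the share was 3.70% of members against 8.57% of all genes, and within 100 bp it was 25.9% against 24.2%, so the direction of the difference depends on the window.

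The insulator protein BEAF-32 binds CGATAT, which was at the summits of 2 members (MED27 and MED28, 7.41%), against 20.2% of all genes, and which can overlap TATCGATA, as it does in MED28. GAGAGAG, bound by GAGA factor, was at 0 members against 1.95%, and GGTCACAC was at the summit of Taf1 alone, 3.70% against 3.57% (0% in each own list, against 3.27% ± 0.277). CAGCTG, an E-box word, was at 3 members (11.1%) against 9.66%, but in the own lists at 3.41% ± 4.35 of members against 8.63% ± 0.966, the opposite direction. TATAAA, the TATA-box word, was at 4 (14.8%) against 17.0%, and in the own lists at 9.60% ± 1.01 against 17.9% ± 0.628. For CGATAT and GAGAGAG the own lists gave 7.07% ± 2.37 against 24.0% ± 1.16 and 1.14% ± 2.27 against 1.40% ± 0.639 (all SD, n = 4). The homeodomain words TAATTA and TAATTG, the kind of sequence that proteins like Dll recognise, were at 1 member (MED25, 3.70% against 9.09%) and 3 members (MED7, Taf1 and Taf3, 11.1% against 9.97%). Their shares in the own lists were 7.07% ± 5.76 of members against 9.01% ± 0.774 of all genes for TAATTA and 9.34% ± 3.31 against 9.79% ± 0.219 for TAATTG (SD, n = 4). These shares again rest on a few genes per list. At MED7 the TAATTG is the capitalised word in the printed sequence, centred 27.5 bp from the summit. A word in a window is a description and does not show that a factor was bound there.

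All 8 words were also counted in the promoters themselves, taken from 250 bases before the first TSS to 50 after it. The homeodomain words went in opposite directions. TAATTA was in 9 of the 27 members with a conservative peak, against 22.7% of all such genes. It was in 4 of the 17 members without, against 19.3% of all genes without. TAATTG was in 4 of the 27, against 26.2% of all genes with a peak, and in 7 of the 17, against 24.7% of all genes without. TATCGATA and GGTCACAC are set out in more detail, and the remaining words are not described. TATCGATA was in 8 of 44 promoters (18.2%), against 9.36% of all protein-coding genes. It was in 7 of the 27 with a conservative peak (25.9%, against 24.4% of all genes with a peak) and in 1 of the 17 without, MED8 (5.88%, against 2.04%). GGTCACAC was in 12 of 44 promoters (27.3%), against 7.69% of all genes. It was in 3 of the 27 members with a conservative peak (MED20, Taf1 and Taf4, 11.1%, against 13.3% of all such genes) and in 9 of the 17 without (52.9%, against 4.97%). These 9 were MED8, MED10, MED11, MED15, MED19, MED22, MED23, MED24 and Taf5. All of them are Mediator genes except Taf5. The words were searched at the first TSS, whereas the conservative summits of Taf4, Taf7 and MED26 were counted at another TSS of the gene. At Taf4, GGTCACAC began 11 bp after the first TSS, and the summit lay 86 bp upstream of a later TSS.

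The word was placed much alike in these promoters. In 11 of the 12 members with GGTCACAC it read as written on the gene's strand and began between 20 bp before and 30 bp after the TSS. This holds for 562 of the 1074 genes with the word (52.3%). The exception was MED10, where it was reversed and began 67 bp upstream. In the other members it began from 9 bp before (MED11) to 18 bp after the TSS (MED23). The span of 20 bp before to 30 bp after was not planned beforehand and encloses these positions. The comparison with all genes is therefore a description only. Examples in the printed set are MED11, where it began 9 bp before the TSS, MED22 with 7 bp before, MED15 with 6 bp after, MED19 with 8 bp after and MED24 with 17 bp after. Grouped by the own lists instead, GGTCACAC was in 1 of 15 members with a peak in all 4, against 10.8% of all such genes. It was in 4 of 12 with a peak in 1 to 3 lists, against 14.7% of all such genes. Of the members with none it was in 7 of 17, against 5.45%. The 1 of 15 was Taf4, whose word and counted summits lie at different TSSs. The members without a peak were thus the group with the highest share under either grouping, while over all genes it was the group with the lowest.

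**Figure D5:**
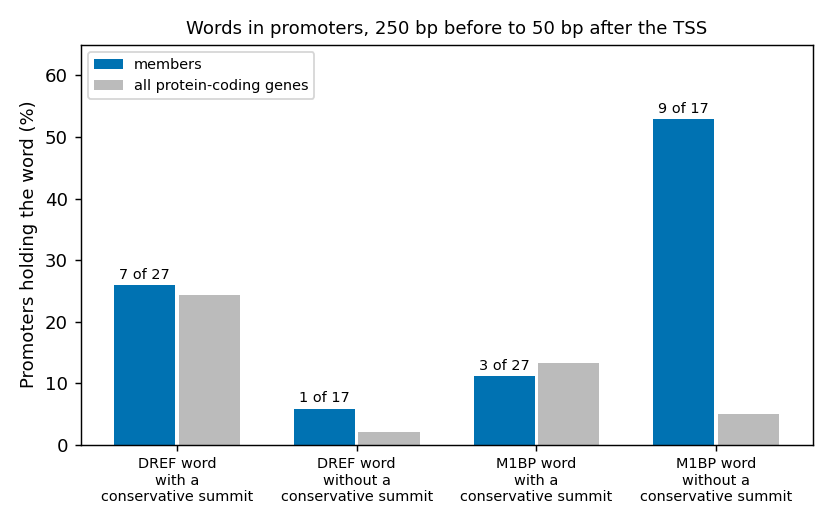
Percent of promoters, from 250 bp before to 50 bp after the first TSS, that hold the DREF word or the M1BP word (vertical axis), for genes with and without a conservative summit. Blue bars are members, with their counts above, and grey bars are all protein-coding genes. The M1BP word is in 9 of 17 members without a conservative summit (52.9%) against 4.97% of all such genes.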

How the data were processed

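ChIP-seq peak lists from 4 biological replicates of 1 group were used. Per the labels, peaks were placed on dm6 by the authors. Neither the aligner nor the peak caller is given in the sources used here. The control library was not analysed here. The signal column holds a value that the authors deposited for each peak. Its normalization is not stated, so signal was never compared between lists. The score column is the deposited scaled IDR of the authors. Of the files, 15 lists were used, and 14 signal columns of the series-level ranked lists, which carry no sample name, were not.

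Summits (column start plus offset) were matched to the TSSs of 13968 protein-coding genes (Ensembl), and for each gene the peak of highest signal within 500 bp was kept. Words were searched in the RefSeq Release 6 genome within 50 bp of the summit and in promoters of 300 bp. Gene roles and modules came from textbook lists. The members, lists and words were chosen with earlier results of these data known. Named with ranks were the 10 highest placed members in all 4 own lists and members on which lists disagree, and every other member was accounted for. Depth is unknown, so precision comes from the spread over replicates. Where nothing but the label shows that replicates came from separate collections, that spread may be partly technical. Alternatives covered the distance, the assignment of summits, the TSS set, repeated summits, the upper 50% by signal, other lists and each replicate left out. Scripts used Python 3.11.15, NumPy 2.4.6, pandas 2.3.3 and matplotlib 3.10.9. Tested on simulated data, the matching recovered 200 of 200 summits planted inside the distance and called 0 of 200 planted outside.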

Additional observations from a re-analysis of the deposited data

Results flagged for a closer look

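Dixon's ratio, the gap of the farthest replicate to its neighbour divided by the whole range, was computed for 16 groups of 4 values, and 4 exceeded Dixon's 95% critical value for 4 samples. Chance gives this in about 1 in 20 groups of independent, normally distributed values. Percent ranks and a count need not meet this, and Taf10 and Taf10b, which share a peak, have identical ranks. The rank of MED30 in replicate 4, at 81.7% from the top, stood below the other replicates, with a ratio of 0.86. MED7 in replicate 2, at 0.803%, gave 0.896, although all 4 of its ranks are within the top 1%. The rank of skd in replicate 2, at 74.7%, gave 0.85, and that summit lies at another TSS of the gene than in the other replicates. The number of members with a peak, 18 in replicate 3, gave 1, as the other replicates each had 22.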

How the results depend on the processing

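Of 65 alternative values, 53 stayed within the limits set for them and 12 did not. For the counts the limit was a fixed ratio to the main value, not a spread over replicates. For the median rank it was the SD over replicates, and for the share with TATCGATA the Wilson interval. The members' share with a conservative peak was above that of all genes in 15 of 15 settings, with 19 to 30 members. The count in all 4 own lists, 15, was 7 with the nearest TSS only, 8 in the upper 50% by signal and 38 in the ranked lists (10.9%, 11.9% and 47.4% of all genes), and it was 15 to 17 with each replicate left out. The mean per own list, 21, was 12.2 in the upper 50%, 40.8 in the ranked lists and 20.7 to 22 with each replicate left out. The ranked lists held a candidate at 60.6 to 62.9% of all genes. For this mean the share of all genes was not computed in the upper 50% or with a replicate left out. The median rank, 30.8%, was 33.2% at 1000 bp, 40.2% in the upper 50%, 35.9% with 1 summit per merged region, 33.1% among promoter peaks only and 30.8 to 36.6% with each replicate left out. For the upper 50%, the merged regions and the promoter peaks, ranks were taken anew within the shortened lists. Those 3 values are therefore not on the scale of the 30.8%, and the 40.2% covers 8 members, not 15. The share with TATCGATA at the summit, 11.1%, was 3.70% within 25 bp (8.57% of all genes). The upper 50% holds fewer peaks and the ranked lists more by construction, and for the other moves the cause was not tested. No paired analysis was possible because all samples are in 1 group. The class counts rest on 4 to 10 genes each, and depth, which peak lists do not give, sets an unknown limit on what the thresholded lists could detect.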

Other observations

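By chromosome arm, conservative peaks lay at 5 of 7 members on 2L, 2 of 5 on 2R, 7 of 15 on 3L, 8 of 11 on 3R and 3 of 4 on X, against 31.0%, 32.7%, 31.6%, 32.9% and 36.6% of all genes of those arms. Both members on chromosome 4, Taf3 and MED26, had a conservative peak, against 21.2% of its genes, and neither had a peak in all 4 own lists. No member had a conservative summit in its gene body more than 500 bp from its TSSs.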
